A study of Mus musculus with 18 samples.

Results

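The 7 microRNA (miRNA) loci described here, known from blood and blood vessels, were followed in vesicles and cells of mouse fat: Mir451a, Mir144 and Mir486 of red cells, Mir142b, Mir223 and Mir150 of white cells, and Mir126a of endothelium. They are 7 of the 2009 hairpin loci in the count files and all 7 passed the filter on low counts, which left 245 loci. They were chosen by their known restriction to these cell types and selected on their higher counts in vesicles than in cells of this series, so every value that sets vesicles against cells is a description without a test.

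Small RNA was sequenced from extracellular vesicles (EV, the small membrane particles cells release) and from the adipose-derived stromal cells (ASC, mesenchymal cells grown from fat) that gave them. The groups were primed EV (n = 5), naive EV (n = 5), primed ASC (n = 4) and naive ASC (n = 4), all from adult mice of strain NGL. Primed cells had been kept with interferon gamma for 24 h and naive cells had not. Each then spent 48 h in alpha MEM with 2% EV-free FBS, so the culture serum was the same in all 4 groups. Any RNA from this serum in EV samples cannot be told apart from RNA of the cells' own vesicles, and its part was not tested. EV RNA came from a SeraMir column kit and ASC RNA from TRIzol with RNeasy columns, so that vesicle or cell and isolation method cannot be told apart. The labels do not say whether replicates are separate animals or cultures, so p-values measure the spread between these samples, which may be technical. Medium without cells was not analysed here.

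A miRNA is cut from a hairpin transcript to a mature strand that guides an Argonaute protein to messenger RNAs, mainly through its seed, the bases near its 5′ end. Mir144 and Mir451a are transcribed together in the red cell lineage under GATA factors, and miR-451a is an exception among miRNAs because Argonaute 2 and not Dicer makes its final cut. Mir142 is active in nearly all blood cells, Mir223 in granulocytes, monocytes and platelets, and Mir150 in mature lymphocytes. Mir126a lies within Egfl7, a gene of endothelial cells, and helps to keep vessels intact.

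The mature strands that the RefSeq table (GRCm38.p6) places at these loci are shown because a locus count does not tell its strands apart, with the seed (bases 2 to 8) in capitals, 5′ to 3′.
miR-451a: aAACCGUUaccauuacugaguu
miR-144-3p: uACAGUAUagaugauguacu
miR-144-5p: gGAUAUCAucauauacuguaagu
miR-142a-3p: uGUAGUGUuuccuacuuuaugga
miR-142a-5p: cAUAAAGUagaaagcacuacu
miR-142b: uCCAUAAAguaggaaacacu
miR-223-3p: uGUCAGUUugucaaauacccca
miR-223-5p: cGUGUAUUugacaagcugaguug
miR-150-3p: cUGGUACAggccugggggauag
miR-126a-3p: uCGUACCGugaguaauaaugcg
miR-126b-5p: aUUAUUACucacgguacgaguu

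In all the table holds 13 mature strands at 6 of the 7 loci, the others being miR-126b-3p and miR-451b, and their 13 seeds all differ. None of the seeds occurs in another of the 1679 mature miRNA names of the table, and Mir486 has no entry there. For Mir150 the table holds only miR-150-3p, and for Mir126a itself only miR-126a-3p. The strands from the other arms of these hairpins are thus not shown, and their seeds were not compared. The files count hairpins without regard to strand. miR-142b lies opposite miR-142a-3p over 20 bases and miR-126b-5p opposite miR-126a-3p over 19 bases, so the Mir142b count covers Mir142 and the Mir126a count covers Mir126b. Mir486 likewise lies opposite Mir3107 (also named mir-486b), and Mir451a opposite Mir451b, so their counts can include these.

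The hairpin of Mir451a, on chr11:78073170-78073241 (GRCm38, plus strand), is shown with the mature strand in capitals because that strand runs from position 17 to 38 of 72, through the stem into the loop.
Mir451a hairpin: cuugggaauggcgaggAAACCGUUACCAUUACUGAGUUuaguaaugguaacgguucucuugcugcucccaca

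Mir144 is on chromosome 11 from 78073005 to 78073070, 99 bases before Mir451a, and neither lies in a longer gene of GENCODE M21. Mir142b is on chromosome 11 from 87756841 to 87756955, in an intron of the long noncoding Mir142hg. Mir486 is on chromosome 8 from 23142555 to 23142682, in introns of Gm15816 and of Ank1, which encodes a red cell membrane skeleton protein. Mir223 is on chromosome X from 96242817 to 96242926, in an exon of the noncoding F630028O10Rik. Mir150 is on chromosome 7 from 45121757 to 45121821, outside other genes. Mir126a is on chromosome 2 from 26591357 to 26591429, in an exon of Egfl7 and an intron of Gm20532.

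Library totals ran from 613448 to 3052942 counts in EV and from 180812 to 926183 in ASC. The 13 loci listed as mesenchymal, led by Mir22 and Mir143, held 67.8% to 72.4% of the counts in EV libraries and 30.7% to 54.3% in ASC libraries. Of 12 tested, 5 were higher and 4 lower in primed EV than in primed ASC by edgeR's test. In naive samples 3 were higher and 3 lower. Over all loci 35.9% were higher and 32.2% lower in primed, and 33.5% and 32.7% in naive samples. The summed share follows its most abundant loci and does not by itself identify the cell type. Of 8 striated muscle loci none passed the filter, and Mir122, the defining liver miRNA, had 55 counts over all EV and 1 over all ASC libraries. The whole list of 5 liver loci held a median of 1.01% of counts in primed EV and 1.03% in naive EV, against 0.413% in primed ASC and 0.587% in naive ASC, nearly all on Mir148a and Mir192, which other tissues express too. Both of these were higher in EV by edgeR's test, with log2 fold changes of 1.68 (SE 0.22) in primed and 1.18 (SE 0.21) in naive samples for Mir148a. The part of this list in the levels of the 7 loci was not tested.

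Together the 7 loci held 0.767% ± 0.305 of counts in primed EV (SD, n = 5) and 1.24% ± 0.685 in naive EV (n = 5), against 0.0597% ± 0.0427 in primed ASC and 0.0328% ± 0.0121 in naive ASC (n = 4 each). The mean share was thus 12.8 times higher in primed EV than in primed ASC and 37.9 times higher in naive EV than in naive ASC. By library the share was 1.04%, 0.345%, 0.622%, 1.08% and 0.744% in primed EV 1 to 5, and 0.694%, 1.05%, 0.779%, 2.39% and 1.30% in naive EV 1 to 5. It was 0.0406%, 0.0680%, 0.115% and 0.0152% in primed ASC 2 to 5, and 0.0502%, 0.0233%, 0.0258% and 0.0319% in naive ASC 1, 3, 4 and 5. The lowest EV library, primed EV 2, stood above the highest ASC library, primed ASC 4, and naive EV 4 stood far above the rest. Without naive EV 4 the naive EV mean was 0.955%.

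**Figure D1:**
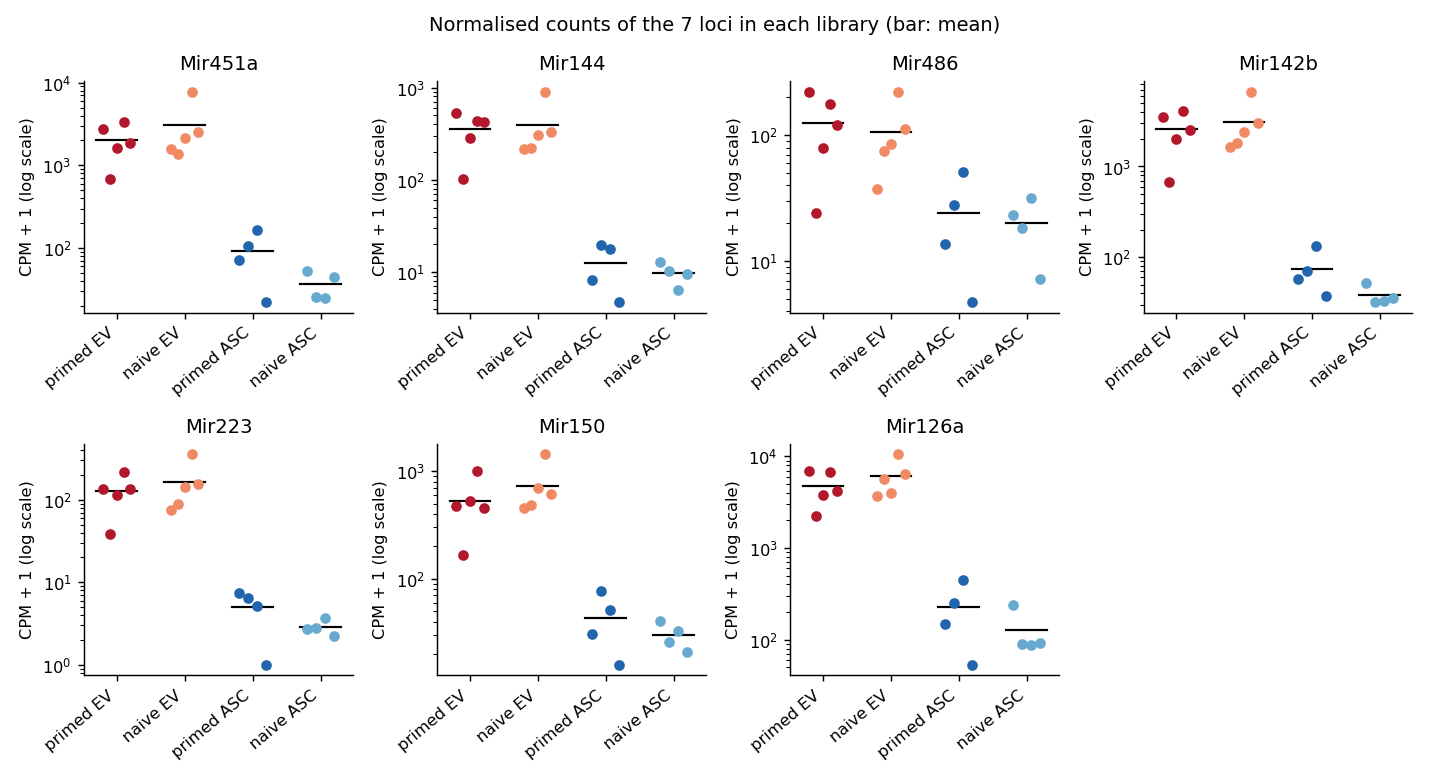
Normalised CPM plus 1 (log axis) of each locus in every library, with primed EV, naive EV, primed ASC and naive ASC from left to right and a bar at each group mean. For Mir451a, Mir144, Mir142b, Mir223, Mir150 and Mir126a all EV libraries lie above all ASC libraries, and for Mir486 the groups overlap.

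Of the red cell loci, Mir451a is abundant in mature red cells and is needed for their normal maturation under stress. Its normalised level was 2728, 682, 1614, 3376 and 1859 CPM (counts scaled to library size) in primed EV 1 to 5, and 1561, 1389, 2112, 7809.8 and 2508 CPM in naive EV 1 to 5. In ASC it was 70.0, 105, 166 and 21.1 CPM in primed ASC 2 to 5, and 51.5, 24.7, 23.5 and 43.2 CPM in naive ASC 1, 3, 4 and 5. Naive EV 4 and primed EV 4 were highest, primed EV 2 was lowest of the EV libraries, and EV and ASC did not overlap. The fitted log2 fold change was 4.58 (SE 0.65) for primed EV over primed ASC and 6.45 (SE 0.71) for naive EV over naive ASC.

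Mir144, its transcript partner, was at 522, 102, 282, 432 and 422 CPM in primed EV 1 to 5, and at 216, 221, 308, 904 and 326 CPM in naive EV 1 to 5. In primed ASC 2 to 5 it was at 7.27, 18.8, 16.6 and 3.73 CPM, and in naive ASC 1, 3, 4 and 5 at 12.0, 9.15, 5.42 and 8.64 CPM. Naive EV 4 again stood highest and primed EV 2 lowest among vesicles, with no overlap with cells, whose libraries held 3 to 10 counts each. The log2 fold change was 5.14 (SE 0.62) in primed and 5.50 (SE 0.60) in naive samples.

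Mir486, which red cells and muscle both make, was at 222, 23.1, 78.1, 176 and 121 CPM in primed EV 1 to 5, and at 36.3, 73.7, 83.9, 221 and 111 CPM in naive EV 1 to 5. In primed ASC 2 to 5 it was at 12.7, 26.9, 49.8 and 3.73 CPM, and in naive ASC 1, 3, 4 and 5 at 22.3, 17.4, 30.7 and 6.17 CPM. Here primed EV 2 fell within the range of primed ASC, so the primed groups overlapped while the naive groups did not. The log2 fold change, 2.61 (SE 0.72) in primed and 2.43 (SE 0.68) in naive samples, was the smallest of the 7 loci in both.

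Of the white cell loci, Mir142b, whose count covers the pan-leukocyte Mir142 on the opposite strand, was at 3544, 667, 2013, 4033 and 2518 CPM in primed EV 1 to 5 and at 1630.4, 1807, 2410.3, 6677 and 3038 CPM in naive EV 1 to 5. In primed ASC 2 to 5 it was at 56.3, 69.9, 133 and 36.03 CPM, and in naive ASC 1, 3, 4 and 5 at 51.5, 31.1, 31.6 and 34.6 CPM. Vesicles and cells did not overlap, and 3 of the naive ASC libraries lay within a few CPM of each other. The log2 fold change was 5.19 (SE 0.57) in primed and 6.40 (SE 0.60) in naive samples.

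Mir223, which restrains granulocyte production and activity, was at 135, 37.7, 114, 213 and 133 CPM in primed EV 1 to 5, and at 75.0, 86.7, 142, 355 and 155 CPM in naive EV 1 to 5. It was nearly absent from cells, with 7, 2, 1 and 0 counts in primed ASC 2 to 5 and 1, 2, 3 and 1 counts in naive ASC 1, 3, 4 and 5. The 0 in primed ASC 5 allows a level of up to 4.29 CPM before scaling, by counting error only. Summed over the group, primed ASC held 10 counts (95% exact Poisson interval 4.795 to 18.4, counting error only) and naive ASC 7 counts (2.81 to 14.4). The fitted log2 fold change was 4.97 (SE 0.69) in primed and 6.29 (SE 0.72) in naive samples and rests on these few cell counts.

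Mir150, which limits the lymphocyte factor Myb, was at 475, 165, 527, 998 and 453 CPM in primed EV 1 to 5, and at 453, 485, 688, 1432 and 607 CPM in naive EV 1 to 5. In primed ASC 2 to 5 it was at 30.0, 75.3, 49.8 and 14.9 CPM, and in naive ASC 1, 3, 4 and 5 at 39.5, 24.7, 31.6 and 19.8 CPM. The groups did not overlap, and the EV libraries 4 of both treatments were the highest. The log2 fold change was 3.71 (SE 0.53) in primed and 4.67 (SE 0.54) in naive samples.

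Mir126a, the endothelial locus, was at 6948, 2251, 3801, 6733 and 4196 CPM in primed EV 1 to 5, and at 3673, 5615, 3969.9, 10544 and 6422 CPM in naive EV 1 to 5. In primed ASC 2 to 5 it was at 148, 253, 444 and 52.2 CPM, and in naive ASC 1, 3, 4 and 5 at 240.2, 88.8, 86.7 and 91.4 CPM. Vesicles and cells did not overlap, and naive ASC 1 stood apart from the other 3 naive cell libraries. The log2 fold change was 4.46 (SE 0.56) in primed and 5.59 (SE 0.59) in naive samples.

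In naive samples all 7 loci, and in primed samples 6 of 7, were higher in every EV library than in every ASC library. Over all 245 loci this held for 30.2% in naive and 27.8% in primed samples, and since the choice of members used this contrast nothing is read from the difference. The median log2 fold change of the 7 loci was 4.58 in primed and 5.59 in naive samples, where that of all 245 loci was 0.02 and -0.24. Counted from the highest log2 fold change, the 7 ranked between 3 and 33 of 245 in both, so other loci stood above and among them. With library totals in place of the trimmed mean scaling the medians of the 7 were 3.79 and 5.14 and those of all loci -0.69 and -0.70. Where less of a miRNA is counted in bulk samples, fewer cells or vesicles that hold it and less of it in each cannot be told apart.

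Levels of different loci were set against each other per 100 bases of annotated hairpin. The hairpins have from 65 bases (Mir150) to 128 bases (Mir486), while the mature strands shown have 20 to 23. The division can thus shift ranks by annotated length alone. On this scale Mir126a ranked 29 in primed EV and 19 in naive EV among 245 loci, against 98 in primed ASC and 127 in naive ASC. Mir451a ranked 42 and 32 in primed and naive EV, against 133 and 161 in primed and naive ASC, and Mir142b ranked 50 and 43, against 161 and 179. Mir150 ranked 74 and 68 in primed and naive EV, and Mir144 86 and 84. Mir223 averaged 115 and 148 CPM per 100 bases in primed and naive EV, and Mir486 96.9 and 82.1. On this scale the order of the 7 was the same in both EV groups: Mir126a, Mir451a, Mir142b, Mir150, Mir144, Mir223 and Mir486. The place of Mir451a before Mir142b rests on the division by length. Without it Mir142b averaged 2555 CPM and Mir451a 2052 CPM in primed EV, and 3113 and 3076 CPM in naive EV. In per-length level Mir451a and Mir142b were neighbours whose libraries overlapped, and so were Mir150 and Mir144, and Mir223 and Mir486.

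**Figure D2:**
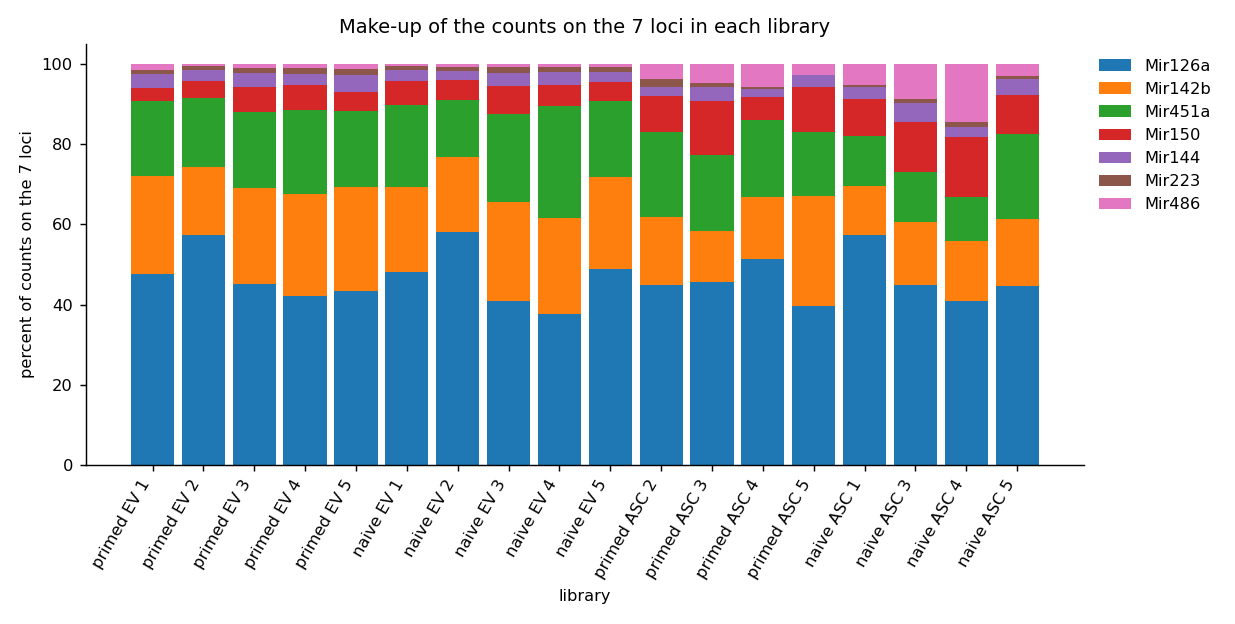
Percent of the counts on the 7 loci (vertical axis) that falls on each locus, stacked, in each of the 18 libraries, with EV libraries left of ASC libraries. Mir126a takes 37.7% to 58.0% in EV and 39.6% to 57.4% in ASC, while the Mir486 part is larger in ASC.

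The make-up of the counts on these loci, a quantity that does not depend on the library total, was much alike in vesicles and cells for some loci and not for others. Mir126a made up 46.9% ± 6.64 of them in EV libraries (SD, n = 10) and 46.1% ± 5.74 in ASC libraries (n = 8). Mir144 made up 3.06% ± 0.614 in EV and 3.08% ± 0.948 in ASC. Mir451a made up 19.9% ± 3.50 in EV and 16.5% ± 4.13 in ASC, and Mir142b 22.8% ± 2.94 in EV and 16.5% ± 4.71 in ASC, with ranges that overlapped for both.

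Mir486 stood apart, with 0.912% ± 0.309 in EV and 6.11% ± 3.87 in ASC. Its highest EV library, at 1.52%, was below its lowest ASC library, at 2.83%. Mir150 made up 5.24% ± 1.14 in EV and 10.8% ± 2.91 in ASC, with overlap. The ASC values rest on 106 to 364 counts per library over all 7 loci, so counting error is large for the rarer of them, and as a view of the EV against ASC contrast these shares carry no test.

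The pair from 1 transcript was compared within libraries as the percent of Mir144 among the counts of Mir144 and Mir451a together. It was 16.1%, 13.04%, 14.9%, 11.3% and 18.5% in primed EV 1 to 5, and 12.2%, 13.7%, 12.7%, 10.4% and 11.5% in naive EV 1 to 5. The means were 14.8% ± 2.76 in primed EV and 12.1% ± 1.26 in naive EV (SD, n = 5 each), and the libraries overlapped. In ASC the percent was 12.2% ± 3.39 in primed and 20.3% ± 4.57 in naive libraries (SD, n = 4 each), and the lowest naive library, at 16.7%, was above the highest primed one, at 15.2%. The 95% Clopper-Pearson intervals of these ASC libraries were wide, from 6.34% to 28.9% in primed ASC 3 and from 6.97% to 31.4% in naive ASC 5. They cover counting error only, and no test was run on this percent. Both hairpins give different mature strands to the count, and library preparation can favour some strands over others, so the percent is not a ratio of transcripts.

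**Figure D3:**
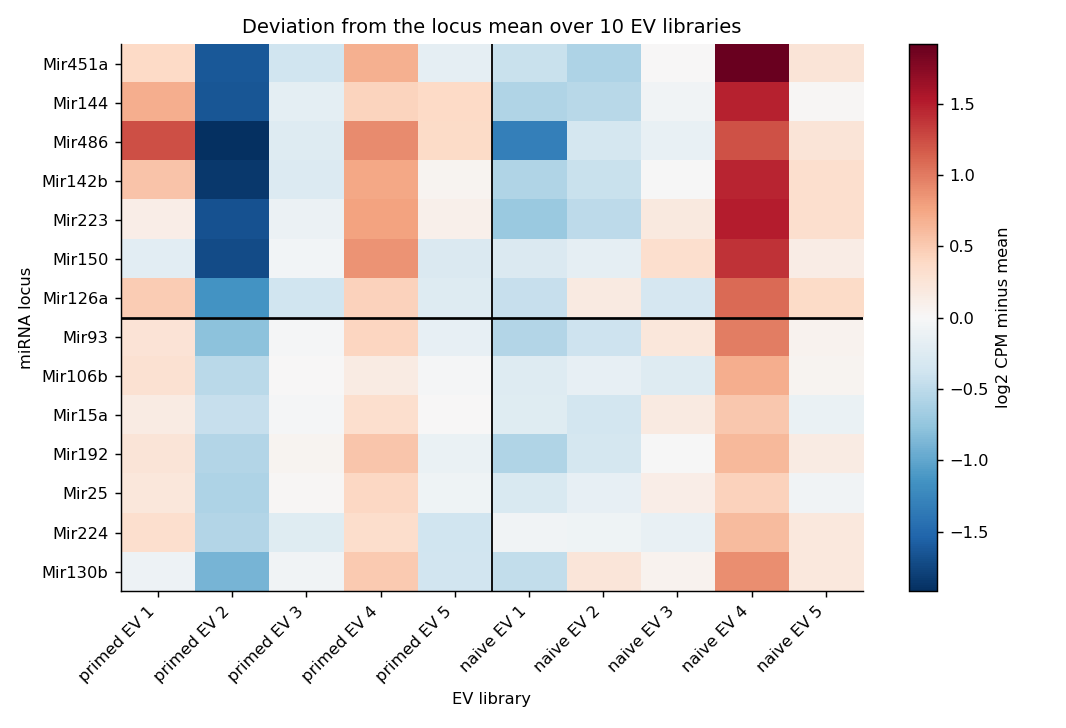
Log2 CPM of each locus in the 10 EV libraries minus the mean of that locus over them (colour), with the 7 loci above the line and the 7 loci of most similar pattern below it, and primed EV left of naive EV. Primed EV 2 is lowest in each row except Mir192, where it is second lowest, and naive EV 4 is highest in each row except Mir486.

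Within vesicles the 7 loci went up and down together from library to library. Naive EV 4 ranked first of 10 EV libraries for 6 loci and second for Mir486, and primed EV 2 ranked last for all 7. After the mean of each EV group was taken off, the 21 pairs of loci had Pearson correlations of log2 CPM from 0.82 to 0.98 over these 10 libraries, with a median of 0.93. The median over all pairs of the 245 loci was 0.06. The values share library, depth and scaling and are given as a description. The closest pair was Mir142b and Mir223, at 0.98, and the least close Mir150 and Mir126a, at 0.82. Without naive EV 4 and primed EV 2 the median of the 21 pairs was 0.78 over 8 libraries, and the lowest pair fell to 0.30, so part of the closeness rests on these 2 libraries. With library totals alone it was 0.92. In the 8 ASC libraries the median was also 0.78.

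Other loci followed the same course. For Mir451a the closest loci outside the 7 were Mir93 (r = 0.96 over 10 libraries), Mir106b (0.95) and Mir15a (0.94). For Mir223 they were Mir93 (0.96), Mir192 (0.95) and Mir25 (0.95), and for Mir126a Mir106b (0.94), Mir224 (0.93) and Mir130b (0.89). Mir93, Mir25 and Mir106b are made from 1 cluster that most growing cells express, Mir15a is a widely expressed relative of miR-16, and Mir192 is a liver and gut miRNA. In edgeR's test of EV against ASC, 4 of these 7 loci were higher in both primed and naive EV, Mir224 in primed EV, and Mir25 and Mir106b in neither. The share called higher over all 245 loci was 35.9% in primed and 33.5% in naive samples. Mir93 was higher by a log2 fold change of 0.87 (SE 0.31) in primed and 0.79 (SE 0.31) in naive samples, Mir192 by 2.46 (SE 0.34) and 2.00 (SE 0.33), and Mir130b by 1.14 (SE 0.31) and 0.74 (SE 0.30). Mir224 was at 1.17 (SE 0.37) in primed and 0.35 (SE 0.34) in naive samples. Mir106b averaged 186 CPM over EV libraries and 257 CPM over ASC libraries, and Mir25 averaged 779 CPM over EV and 667 CPM over ASC libraries. Mir106b was lower in primed EV than in primed ASC at a log2 fold change of -0.74 (SE 0.25; adjusted p = 0.0123 in edgeR's test), but its value of -0.15 in naive samples did not pass (adjusted p = 0.59 by the same test). Mir15a was higher in EV at 2.57 (SE 0.26) in primed and 2.64 (SE 0.25) in naive samples, with adjusted p of 4.21e-08 and 2.70e-08 in edgeR's quasi-likelihood test.

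**Figure D4:**
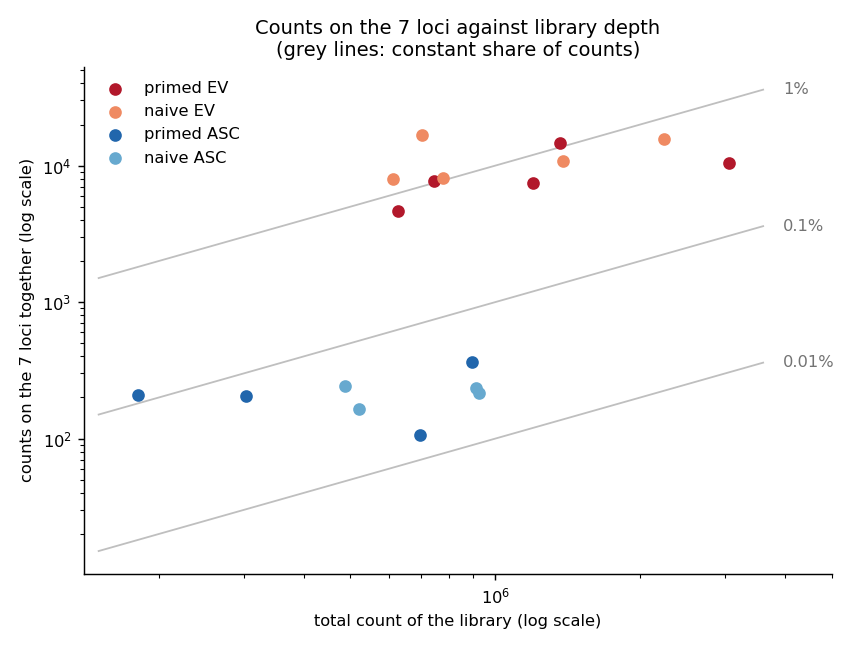
Counts on the 7 loci together against the total count of each library, both on log axes, with grey lines of constant share at 0.01%, 0.1% and 1%. EV libraries hold 4666 to 16823 such counts and ASC libraries 106 to 364, and neither cloud follows the grey lines.

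Depth and the 7 loci did not go together in a fixed ratio. In EV the total varied 4.98-fold between libraries and the summed count of the 7 loci 3.61-fold. The deepest library, primed EV 2, had 3052942 counts in all and 10535 on the 7 loci, while naive EV 4 had 703422 in all and 16823 on the 7 loci. In ASC the total varied 5.12-fold and the summed count 3.43-fold, and the shallowest library, primed ASC 4 with 180812 counts in all, had the highest share, with 208 counts on the 7 loci. The part of depth in these levels was not tested.

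The priming comparison inside vesicles was not used to choose the loci. It asked whether vesicles of cells primed with interferon gamma held other amounts of these miRNAs, and 0 of the 7 loci passed the test. Mir451a averaged 2052 ± 1039 CPM in primed EV and 3076 ± 2683 CPM in naive EV (SD, n = 5 each), a log2 fold change of -0.58 (SE 0.49; adjusted p = 0.689 by edgeR's quasi-likelihood F test, adjusted over 245 loci by Benjamini-Hochberg). Mir126a averaged 4786 ± 2013 CPM in primed EV and 6045 ± 2761 CPM in naive EV, at -0.34 (SE 0.44; adjusted p = 0.83 by the same edgeR test). Mir142b averaged 2555 ± 1325 CPM in primed EV and 3113 ± 2068 CPM in naive EV, at -0.28 (SE 0.42). The spread between libraries of 1 group was larger than these differences.

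The fitted values of the rest were -0.17 (SE 0.42) for Mir144, 0.24 (SE 0.58) for Mir486, -0.36 (SE 0.45) for Mir223 and -0.48 (SE 0.41) for Mir150. All 7 adjusted p-values lay between 0.689 and 0.895 in edgeR's quasi-likelihood test, and the primed and naive libraries of every locus overlapped, where 2.45% of all loci had primed libraries all higher and 0% all lower. Of the 7 loci 0 passed at the adjusted threshold and 0 had an unadjusted p under 0.05, where over all 245 loci 0.816% passed, all of them higher, and 10.2% had such a p. DESeq2 and limma-voom also called 0 of the 7. Of the 7 values 6 were below 0, as were 48.2% of all loci, with a median of -0.34 against 0.02. With library totals alone all 7 were below 0, as were 189 of the 245 loci, with a median of -0.67 against -0.25. For 4 loci the side of 0 changed without naive EV 4, with Mir451a at 0.14, Mir144 at 0.41, Mir142b at 0.22 and Mir223 at 0.16. Mir150 was then at -0.08 and Mir126a at -0.02.

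**Figure D5:**
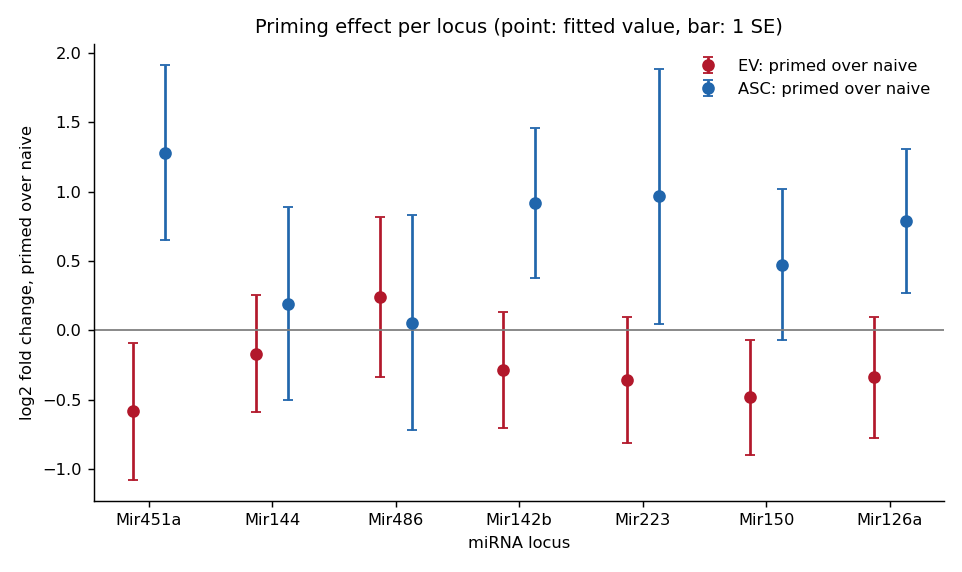
Fitted log2 fold change of primed over naive samples for each locus, in EV (red) and in ASC (blue), with bars of 1 SE on each side. In EV 6 of 7 points lie below 0 and in ASC all 7 lie above it, and none passed the test.

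The priming comparison inside cells gave 0 calls among the 7 loci as well. Mir451a averaged 90.5 ± 61.0 CPM in primed ASC and 35.7 ± 13.8 CPM in naive ASC (SD, n = 4 each), a log2 fold change of 1.28 (SE 0.63; edgeR quasi-likelihood test, adjusted p = 0.235, unadjusted p = 0.0564). Primed ASC 5, at 21.1 CPM, was lower than every naive library, and the other 3 primed libraries were higher than all 4 naive ones. Mir142b was at 0.92 (SE 0.54), Mir223 at 0.97 (SE 0.92), Mir126a at 0.79 (SE 0.52), Mir150 at 0.47 (SE 0.54), Mir144 at 0.19 (SE 0.70) and Mir486 at 0.06 (SE 0.77), with adjusted p from 0.235 to 0.982 over the 7 loci in edgeR's test.

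In ASC 0 of 7 passed and 0 had an unadjusted p under 0.05 by edgeR, while 10.2% (5.31% higher and 4.90% lower) and 23.3% of all loci did. For all 7 the groups overlapped, where 6.53% of all loci had primed libraries all higher and 4.90% all lower. The split of calls was 13 higher and 12 lower, but 18 and 5 with relative log expression factors, 17 and 2 with TMMwsp, 14 and 5 with upper quartile factors and 11 and 14 with library totals alone. DESeq2 called 0 of the 7, with 3 at an unadjusted p under 0.05, and limma-voom 0 and 0. All 7 values were above 0, as were 41.2% of all loci. With no filter on low counts edgeR's test called Mir451a in ASC, at 1.24 with an adjusted p of 0.00302, and it was the only 1 of the 7 called by an alternative.

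The difference between both priming effects, the effect in EV minus that in ASC, was largest in size for Mir451a at -1.87 (SE 0.80; edgeR quasi-likelihood test, adjusted p = 0.36, unadjusted p = 0.0308). It was -1.33 (SE 1.029) for Mir223, -1.21 (SE 0.68) for Mir142b, -1.13 (SE 0.68) for Mir126a, -0.96 (SE 0.68) for Mir150, -0.36 (SE 0.82) for Mir144 and 0.18 (SE 0.95) for Mir486. Of the 7 loci 0 passed, as did 0% of all 245 loci, with 0% higher and 0% lower, and 1 of 7 had an unadjusted p under 0.05, where 10.6% of all loci had. Of the 7 values 6 were below 0, as were 46.9% of all loci. DESeq2 also called 0 of the 7, with 3 at an unadjusted p under 0.05, and limma-voom 0 with 0. With no filter on low counts the difference for Mir451a was -1.78 (adjusted p = 0.00158 in edgeR's test).

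Other loci of blood and vessel biology gave the setting. Of 20 further loci that blood and immune cells express, which many other cells express too, 19 were tested, and priming raised 1 and lowered 0 of them in EV and likewise in ASC. In both it was Mir147, named after its values were seen, at 3.15 (SE 0.49) in EV and 2.71 (SE 0.76) in ASC, with adjusted p of 0.000827 and 0.0297 in edgeR's quasi-likelihood test. Their summed share ran from 0.803% to 1.12% in primed EV and from 0.777% to 1.79% in naive EV, against 1.41% to 2.40% in primed ASC and 2.03% to 2.83% in naive ASC, so as a group they were not richer in vesicles. In EV against ASC, 4 were higher and 6 lower of 19 in primed samples, and 6 higher and 5 lower in naive samples, where 35.9% of all loci were higher and 32.2% lower in primed, and 33.5% higher and 32.7% lower in naive samples. With library totals alone 23.7% and 26.5% of all loci were called higher. The most abundant in EV were Mir182, Mir155, Mir181b-2 and Mir181a-1. Mir155, induced in activated immune cells, averaged 1477 CPM in primed EV and 936 CPM in naive EV, at 0.66 (SE 0.26; edgeR quasi-likelihood test, adjusted p = 0.379).

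Of 15 further endothelial expressed loci in the files 12 were tested, and priming raised 0 and lowered 0 in EV and in ASC by edgeR's quasi-likelihood test. In EV against ASC 6 were higher and 5 lower in primed samples, and 5 higher and 3 lower in naive samples. Over all loci 35.9% were higher and 32.2% lower in primed, and 33.5% higher and 32.7% lower in naive samples. Mir101a of this list, named after its values were seen, held 15955 counts over all EV and 400 over all ASC libraries. Mir27b averaged 17004 CPM in primed EV and 16396 CPM in naive EV, against 6411 CPM in primed ASC and 7973 CPM in naive ASC. Mir92-1 averaged 6175 CPM in primed EV and 8570.0 CPM in naive EV, against 9394 CPM in primed ASC and 10242 CPM in naive ASC. The tested loci of this list were counted in ASC libraries too. So was Mir126a, with 42 to 163 counts per library in primed ASC and 74 to 140 in naive ASC. Whether any of these loci marks endothelium here was not tested.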

How the data were processed

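Small RNA libraries of 18 samples in 4 groups were analysed. Groups and replicate numbers were taken from the source names, since 1 other label calls all samples vesicle miRNA. The deposited values are raw counts per miRNA hairpin locus. Per the file headers they were made by featureCounts 1.5.3 on Ensembl release 76 without strand, while GRCm38, STAR 2.0.4, featureCounts 1.45, Subread and bcl2fastq stand in the submitters' processing notes. Trimming is not given in the sources used here.

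Loci were named by GENCODE M21. Counts were fitted in edgeR 4.0.16 (R 4.3.3): filterByExpr kept 245 loci with 99.96% of counts, libraries were scaled by TMM, and 1 quasi-likelihood model, 1 mean for each group, covered all 18 libraries. Benjamini-Hochberg adjustment covered the 245 loci, with a threshold of 0.05. The SE was taken as the size of the log2 fold change divided by the root of its F statistic. CPM are TMM-scaled, and log2 CPM use a prior count of 2. The fit was tested on simulated data. DESeq2 1.42.0 and limma-voom (limma 3.58.1) were alternatives.

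The members, lists and tests were chosen with earlier results of these data known. The 7 loci are named throughout. Also named are the 3 loci closest to Mir451a, Mir223 and Mir126a by Pearson r over EV libraries, and of other lists those highest in EV. Further lists were neural and epithelial or endocrine miRNAs: 9 neural loci in the files held at most 0.00955% of counts in EV and 0.0508% in ASC, and 9 epithelial or endocrine loci at most 0.288% and 0.283%. Of 5 liver loci 2 were tested, and striated muscle loci held at most 0.00412% in EV and 0.00351% in ASC. Intervals cover counting error only, since reads carried no molecular identifiers.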

Additional observations from a re-analysis of the deposited data

Results flagged for a closer look

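Naive EV 4 stood apart from the other 4 naive EV libraries for 5 of the 7 loci, by the gap to its nearest neighbour over the range of the group (Dixon's test at 95%). It held 7809.8 CPM of Mir451a, 904 CPM of Mir144, 6677 CPM of Mir142b, 355 CPM of Mir223 and 1432 CPM of Mir150. Naive ASC 1 stood apart from the other 3 naive ASC libraries for Mir142b, at 51.5 CPM, and for Mir126a, at 240.2 CPM. In all 36 groups of values were examined and 7 gave such a result, where chance gives about 1 in 20 if values spread normally. CPM were used without logs and their spread was not examined, so that rate may not hold. Mir142b in naive ASC 1, at 0.8298 against a limit of 0.829, and Mir223 in naive EV 4, at 0.713 against 0.71, passed narrowly. The 5 results in naive EV 4 are of loci that vary together and are not independent.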

How the results depend on the processing

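No call among the 7 loci was made or lost in any of the 3 priming tests under 4 other scalings, a stricter filter, DESeq2, limma-voom, either replicate block or without any 1 library, nor in the 2 comparisons within EV and within ASC when only the groups compared were fitted. In the fit of the ASC groups only, Mir144 and Mir223 did not pass the filter and have no value. The exception was the fit with no filter on low counts, in which 1 locus passed in ASC and 1 in the interaction, Mir451a in both, and the cause was not tested. The replicate block by source name number and that by title number called 0 of the 7 as well. Over all tested loci the count called in EV priming was 2. It was 1 with TMMwsp, upper quartile factors, library totals alone and the stricter filter, 5 with DESeq2, 8 with no filter, 7 with the replicate block by title number, and 1 to 8 without 1 library (8 without primed EV 2, 4 without naive EV 1, 1 without any of 6 ASC libraries). With naive EV 4 and primed EV 2 both left out, a setting chosen after seeing the data, it was 1. In ASC priming it was 25, and 40 with DESeq2, 15 with only the groups compared and 6 to 33 without 1 library (6 without naive ASC 3 or naive ASC 4, 11 without primed ASC 3, 12 without primed ASC 4). In the interaction it was 0, 3 with no filter, 3 with DESeq2 and 0 to 1 without 1 library. Same-numbered samples had correlations of deviations from 0.05 to 0.52 over the 5 EV pairs under either numbering. By title, primed EV 1 and primed EV 5 both share the number of naive EV 5 and of primed ASC 5, so the title pairs are not all separate. The same-numbered library was the closest of its group in 2 of these 5 pairs by source name and in 1 by title. It was the closest in 3 of 4 pairs of naive EV with naive ASC, and in 2 of 3 of primed with naive ASC. For primed EV with primed ASC it was so in 2 of 4 by source name and 3 of 5 by title. Whether the numbers pair samples is not settled, and the main fit does not use them.

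Values that changed sign were all of loci without a call. In EV priming Mir486 was at -0.092 with library totals alone. With naive EV 4 and primed EV 2 both left out, Mir451a was at 0.31, Mir144 at 0.62, Mir142b at 0.42, Mir223 at 0.37, Mir150 at 0.12 and Mir126a at 0.10, and the interaction of Mir144 at 0.36. Without 1 library the EV value ran from -0.78 to 0.14 for Mir451a, -0.27 to 0.41 for Mir144, -0.0027 to 0.73 for Mir486, -0.46 to 0.22 for Mir142b and -0.57 to 0.16 for Mir223. In ASC Mir486 was at -0.38 with limma-voom, and without 1 library Mir144 ran from -0.14 to 0.56 and Mir486 from -0.46 to 0.48. The interaction of Mir486 was -0.081 with relative log expression factors, -0.098 with TMMwsp, -0.17 with library totals alone, -0.19 with DESeq2, -0.31 with the replicate block by source name number and -0.096 with that by title number. Without 1 library the interaction ran from -0.83 to 0.24 for Mir144 and from -0.35 to 0.70 for Mir486. The cause of these changes was not tested. The mean share was 2.58% in primed EV, 3.81% in naive EV, 0.112% in primed ASC and 0.0636% in naive ASC once the 5 most abundant loci of each library were left out of the total. Cell libraries held too few counts of Mir223, Mir144 and Mir486 to show modest changes.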
